A study of Mus musculus with 3 samples.

Results

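Of the 5 plasminogen activator and serpin genes Plat, Plau, Plaur, Serpine2 and Serpinb2, only Plau and Serpine2 carried peaks of H3K4me3 in mouse granulosa cells around ovulation, and both did so at every time sampled. H3K4me3 is histone H3 trimethylated on lysine 4, a chromatin mark found mainly at promoters of genes that are active or ready to be transcribed. The 5 genes were chosen by name, out of 21887 protein-coding genes on chromosomes 1 to 19, X and Y. A gene was counted as marked when at least 1 bp of a deposited peak lay in the gene or within 5 kb of it, in the mm10 build. The covered length is the number of bp that peaks cover in that window.

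The study profiled granulosa cells, the somatic cells that surround the oocyte in the follicle, by chromatin immunoprecipitation and sequencing. All cells came from ovaries of wild type C57BL/6 female mice aged 21 to 28 days that had received 4 IU of eCG, a hormone that makes follicles grow. The 0 h group was taken before hCG, which acts on the LH receptor and triggers ovulation and luteinization, and the 4 h and 12 h groups were taken 4 h and 12 h after 5 IU of hCG. Cells were released by puncturing follicles, each time is 1 library, and how many mice were pooled for it is not stated in the labels. With 1 library per time no difference between times has a replicate check, and no test was made.

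Plasminogen activators are serine proteases that cut plasminogen to plasmin, a protease that degrades fibrin and matrix and activates other proteases. Plat encodes the tissue type activator and Plau the urokinase type, and Plaur encodes the receptor that holds urokinase at the cell surface. Serpins are inhibitors that trap their target protease: Serpine2 encodes protease nexin 1, which inhibits urokinase, tissue type activator, plasmin and thrombin, and Serpinb2 encodes plasminogen activator inhibitor 2. In the ovary the system has long been studied for its part in loosening the follicle wall at ovulation.

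The lists held 20669 to 23662 peaks per library, with median widths of 306 to 333 bp and a narrowest peak of 136, 139 and 152 bp at 0 h, 4 h and 12 h. They give no height or score, the sequencing depth is unknown, and the 12 h library ran in lane 5 while the others ran in lane 4. At each time 2 of the 5 genes were marked, beside 56.3% of all protein-coding genes at 0 h, 58.3% at 4 h and 56.2% at 12 h. Marked at all 3 times were 2 of 5, beside 53% of all genes. Unmarked at all times were 3 of 5, beside 39.3% of all genes and 32.3% of the 11813 genes whose length lay within the range of these 5. Counts over 5 genes are too few to set them apart from that background. No gene of the 5 gained or lost its mark between any pair of times. Across all genes 3.44% gained and 1.45% lost their peaks from 0 h to 4 h, 1.5% and 3.62% from 4 h to 12 h, and 2.57% and 2.71% from 0 h to 12 h. Neither Plau nor Serpine2 differed by 2-fold or more in covered length, and the 3 genes without a peak could not. The shares that follow are over all genes, those without a peak included. Of all genes, 3.76% had at least 2-fold more and 1.57% at least 2-fold less at 4 h than at 0 h, 1.33% and 3.5% at 12 h than at 4 h, and 2.77% and 2.74% at 12 h than at 0 h.

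**Figure D1:**
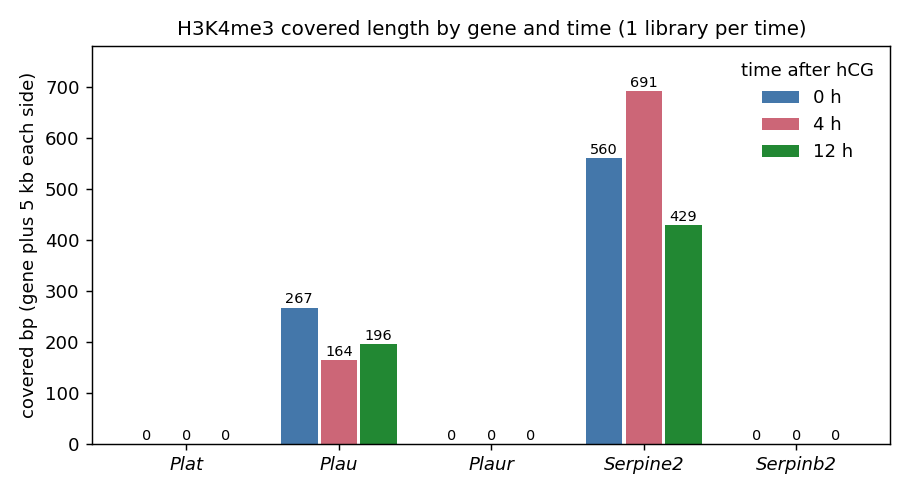
Covered bp of H3K4me3 peaks (vertical axis, from 0) in each gene plus 5 kb on both sides, with a bar per time after hCG and its value above it, 1 library per time and therefore no error bars. Serpine2 had 429 to 691 bp and Plau 164 to 267 bp, and Plat, Plaur and Serpinb2 were at 0 throughout.

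Among the activators, Plau (gene ID 18792, chr14:20836662-20843388) had a single peak at each time. The covered length was 267 bp at 0 h, 164 bp at 4 h and 196 bp at 12 h. These are short stretches: of all marked genes, only 6.96%, 3.54% and 4.31% had fewer covered bp at 0 h, 4 h and 12 h. As peaks, those of 4 h and 12 h were narrow too, with 17% and 21.1% of the peaks of their own library narrower still. The 0 h peak was nearer the middle of its library, where 41.4% of peaks were narrower and the median width was 306 bp.

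The Plau peaks did not all lie in the same place. The 0 h peak ran over chr14:20836749-20837015, the 4 h peak over chr14:20837087-20837250 and the 12 h peak over chr14:20836842-20837037. All 3 lay inside the gene, starting 87, 425 and 180 bp from its lower-coordinate end. The 0 h and 12 h peaks shared 174 bp, while the 4 h peak overlapped neither, so no base was covered at all 3 times. The 4 h peak began at 20837087, a short way past the ends of the others at 20837015 and 20837037. Of 11607 genes marked at all 3 times, 3.57% had no base covered at every time. Of 12004 genes marked at both 0 h and 4 h, 2.15% had none covered at both, as had 2.18% of 11964 genes marked at both 4 h and 12 h. These shares are over genes of any covered length, most with more covered bp than Plau, and were not matched to its short peaks. The gene table used here gives no strand for Plau, and no promoter entry was used, so which end is the start is not stated.

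From 0 h to 4 h the covered length at Plau differed by -103 bp, a log2 ratio of -0.70, beside a median of 0.12 over the 12004 genes marked at both times. From 4 h to 12 h it was 32 bp longer, a log2 ratio of 0.26 beside a median of -0.14 over 11964 genes. Plau therefore lay on the other side of 0 from the median gene in both steps. From 0 h to 12 h, the times whose Plau peaks overlap, it was on the same side. The difference was -71 bp, a log2 ratio of -0.45 beside a median of -0.02 over 11729 genes. With the peaks under the 25th width percentile of each library left out, Plau kept its 267 bp at 0 h and had 0 bp at 4 h and 12 h, so its mark at the later times rests on peaks of 164 and 196 bp. No other protein-coding gene lay within 5 kb of Plau, and the nearest, Camk2g at 42.5 kb, had 1164, 1553 and 1303 bp.

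Plat (gene ID 18791, chr8:22757722-22782848), the tissue type activator gene, had 0 covered bp at 0 h, 4 h and 12 h. Its nearest peaks lay 23.4, 23.6 and 23.5 kb away, within 1 kb of an end of the neighbouring gene Ap3m2, which encodes an adaptor complex subunit. Ap3m2 reaches into the 5 kb window around Plat, and had 774, 851 and 996 bp of its own. The peak lists thus held the mark at the neighbour at every time and none at Plat.

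**Figure D2:**
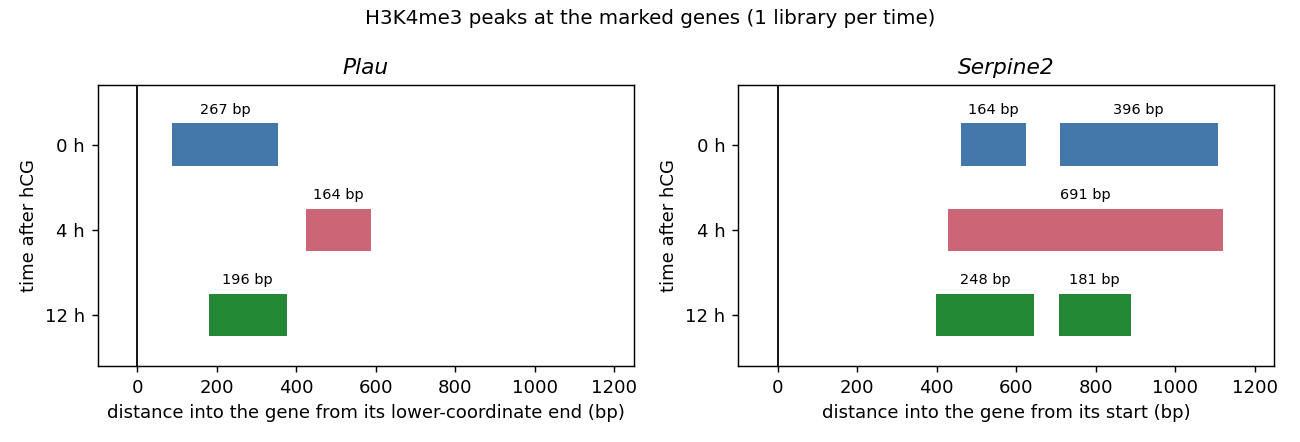
Position of every peak at Plau and Serpine2, with distance into the gene in bp on the horizontal axis and time after hCG on the vertical axis, and each bar drawn from the first to the last base of 1 peak with its width above it. At Plau the 4 h peak of 164 bp lies beyond the 0 h and 12 h peaks, and at Serpine2 a single 4 h peak of 691 bp spans both 0 h peaks and most of the 12 h pair.

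Among the inhibitors, Serpine2 (gene ID 20720, chr1:79794317-79858665, minus strand) had the most covered bp of the 5 genes at each time. It had 560 bp at 0 h, 691 bp at 4 h and 429 bp at 12 h. The highest of these values was thus at 4 h and the lowest at 12 h. Among all marked genes, 24.5%, 31.8% and 16.2% had less at the same times.

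At 0 h the Serpine2 mark was split into peaks of 396 and 164 bp, chr1:79857559-79857954 and chr1:79858040-79858203, with 85 bp between them. At 4 h it was 1 peak of 691 bp, chr1:79857546-79858236, wider than 81.4% of the peaks of that library. At 12 h it was again a pair, of 181 bp at chr1:79857778-79857958 and 248 bp at chr1:79858020-79858267, with 61 bp between them. The region stayed in place: 722 bp were covered at some time and 341 of them at all times. The 4 h peak covered all 560 bp of the 0 h peaks. Relative to the gene start at position 79858665, every covered base lay inside the gene, from 398 to 1119 bp downstream. The start itself was uncovered at all times, as it was at 86.9% to 89.4% of the annotated starts with a peak within 1 kb, and the 1 kb upstream held no covered bp, as at 52.5% to 56.5% of them.

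The difference at Serpine2 was 131 bp from 0 h to 4 h, a log2 ratio of 0.30 beside the median of 0.12, and 66.8% of genes marked at both times had a lower ratio. From 4 h to 12 h the log2 ratio was -0.69 beside the median of -0.14, and 13.6% of genes had a lower one. From 0 h to 12 h it was -0.38 beside -0.02. Within 1 kb of either gene end the differences of -262 bp from 4 h to 12 h and -131 bp from 0 h to 12 h were -143 and -25 bp, and the first was -443 bp without peaks under the 25th width percentile. For the difference of 131 bp from 0 h to 4 h, the gap between the 0 h peaks counts: with peaks within 1 kb joined it was 46 bp, and without those narrow peaks it was 295 bp. No other protein-coding gene lay within 5 kb, and the nearest, Mrpl44 at 12.9 kb, had 507, 668 and 731 bp.

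Serpinb2 (gene ID 18788, chr1:107500892-107525600) had 0 covered bp at every time, and so had its whole neighbourhood. The nearest peak lay 704 kb away at each time, at Vps4b, and only 4.38% of all genes at 0 h and 4.56% at 12 h had their nearest peak farther off. Other clade B serpin genes, relatives of Serpinb2 that arose by duplication, lie on both sides of it. All 8 of those listed from this cluster, Serpinb5, Serpinb7, Serpinb8, Serpinb10, Serpinb11, Serpinb12, Serpinb13 and Serpinb3a, had 0 bp at all 3 times. Of all genes, 39.3% were unmarked throughout.

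Plaur (gene ID 18793, chr7:24460937-24475970), the urokinase receptor gene, had 0 covered bp at 0 h, 4 h and 12 h. Its nearest peak was 31.1 kb away at each time, at Zfp428. The neighbour Cadm4, a cell adhesion gene 6.05 kb away, held no peak between its own ends, and the 1144, 1022 and 923 bp counted in its window lay in its flank, where Zfp428 begins. Irgc1, the neighbour on the other side, had 0 bp at all times.

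RefSeq promoter sequences (GRCm38.p6, the assembly that mm10 names) were matched for 3 of the 5 genes, Serpine2 and Plaur with 1 entry each and Serpinb2 with 2. They are shown because Serpine2, which was marked, differs plainly from the unmarked Plaur and Serpinb2 in its content of CpG, the dinucleotide that is dense in CpG island promoters. Plau, also marked, and Plat, also unmarked, have no entry, so the contrast does not extend to them. The 250 bases before each start are printed 5′ to 3′ on the strand of the gene, with every CpG in capitals. They are chr1:79858666-79858915 (minus) for Serpine2, chr7:24462233-24462482 (plus) for Plaur, and chr1:107511173-107511422 (plus) for the first entry of Serpinb2. The start of the Serpine2 entry is the outer end of the gene. The starts of the Plaur entry (24462483) and the Serpinb2 entries (107511423 and 107511510) lie inside the genes, past their lower-coordinate ends at 24460937 and 107500892. Those outer ends have no promoter entry here, so the sequences describe the inner starts alone.
Serpine2: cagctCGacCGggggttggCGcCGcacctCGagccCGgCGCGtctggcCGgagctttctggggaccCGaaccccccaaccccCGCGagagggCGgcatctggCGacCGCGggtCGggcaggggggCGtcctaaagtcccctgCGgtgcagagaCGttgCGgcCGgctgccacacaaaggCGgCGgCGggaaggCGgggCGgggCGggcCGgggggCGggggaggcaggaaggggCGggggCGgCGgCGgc
Plaur: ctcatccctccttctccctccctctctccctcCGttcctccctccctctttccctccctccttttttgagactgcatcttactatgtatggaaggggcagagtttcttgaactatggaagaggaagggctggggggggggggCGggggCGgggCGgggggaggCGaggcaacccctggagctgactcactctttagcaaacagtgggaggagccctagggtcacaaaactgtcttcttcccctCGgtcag
Serpinb2: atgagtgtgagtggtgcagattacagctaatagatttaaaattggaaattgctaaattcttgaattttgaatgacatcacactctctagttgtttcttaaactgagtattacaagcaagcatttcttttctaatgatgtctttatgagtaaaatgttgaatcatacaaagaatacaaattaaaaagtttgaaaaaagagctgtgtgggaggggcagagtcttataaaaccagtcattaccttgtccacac

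The printed bases held 34 CpG in Serpine2, 6 in Plaur and 0 in Serpinb2. Over the full 300-base entries, which run from 250 bases before the start to 50 after it, Serpine2 had a GC content of 77.7% and a ratio of observed to expected CpG of 0.94, higher than 86.8% of 21263 promoter entries. Plaur had a GC content of 59.3% and a ratio of 0.27, so its GC content was above that of 58.9% of entries but its CpG ratio above that of only 28.7%. The Serpinb2 entries had GC contents of 35.3% and 39.3% and ratios of 0.11 and 0.35.

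Across all promoter entries, 48.9%, 50.4% and 48.7% had a peak within 1 kb of the start at 0 h, 4 h and 12 h, and this share was higher in each class of higher CpG ratio. It was 3.02%, 2.94% and 3.07% for entries with a ratio under 0.2, 15%, 16.1% and 14.5% from 0.2 to 0.4, and 87.3%, 89.3% and 87.8% from 0.8 upward. Serpine2, with 454, 572 and 429 covered bp within 1 kb of its start, belonged to the highest of these classes. Plaur and the second Serpinb2 entry fell from 0.2 to 0.4 and the first Serpinb2 entry under 0.2, all with 0 bp. The 3 genes with an entry are thus on the side that most promoters of their class are on.

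**Figure D3:**
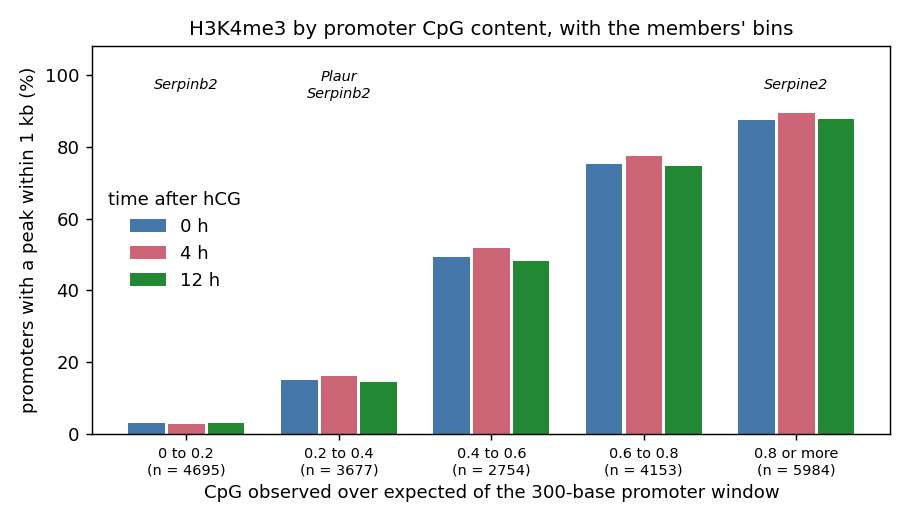
Percent of RefSeq promoter entries with an H3K4me3 peak within 1 kb of the start (vertical axis, from 0) in classes of the ratio of observed to expected CpG (horizontal axis, with the number of entries), a bar per time after hCG. Gene names above the bars mark the classes of Serpine2, at 87.3% to 89.3%, and of Plaur and the Serpinb2 entries, at 16.1% or less.

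Both strands of the 300-base entries were searched for the cyclic AMP response element (CRE) TGACGTCA, its shorter core TGACG, the AP-1 site TGANTCA and the GC box GGGCGG. Plaur held 1 AP-1 match, TGACTCA at bases 182 to 188 of its entry, and Serpinb2 held TGAATCA at bases 157 to 163 of its first entry. Both lie in the bases printed above. AP-1 matches occurred in 6.99% of all promoter entries. Serpine2 held 6 GC boxes and Plaur 3, some of them sharing a base, and Serpinb2 none, where 46.2% of entries held at least 1. No CRE and no core was in any of these windows, beside 2.23% and 23.6% of all entries. A match is a run of letters and no evidence of a bound factor.

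The rest of the system was described with 58 related genes in 7 groups. Of these, 24 were marked at 0 h, 27 at 4 h and 24 at 12 h (41.4%, 46.6% and 41.4%), beside 56.3%, 58.3% and 56.2% of all genes. At no time were 29 marked (50%), beside 39.3% of all genes. These 29 include all 8 clade B serpins of the cluster around Serpinb2, which are neighbours on chromosome 1 and were listed for that position. The lower share of marked genes in the list therefore rests in part on that cluster. Counts within the groups, of 5 to 13 genes each, are too few to set them apart from the shares over all genes. Of the 29 marked at some time, 9 had another protein-coding gene within the window, whose peaks may be the ones counted. Among list genes marked at both times the median log2 ratio of covered length was 0.34 over 23 genes from 0 h to 4 h (all genes 0.12), with 16 longer and 7 shorter. It was -0.31 over 22 genes from 4 h to 12 h (all genes -0.14), with 9 longer and 13 shorter.

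Plg, the gene of plasminogen, the substrate of the activators, had 0 bp at 0 h, 4 h and 12 h. Of 13 inhibitor genes 8 were never marked, beside 39.3% of all genes. Marked at all times were Serpinb6a (2283, 2888 and 2978 bp), Serpini1, the neuroserpin gene (1091, 908 and 1013 bp), and Cpb2 (1007, 1120 and 984 bp), all 3 with another gene in the window.

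Serpinb1a and Serpinb9, clade B serpins on chromosome 13 that inhibit granule proteases of leukocytes, had peaks before and early after hCG and none at 12 h. Serpinb1a had 556 bp at 0 h, 1016 bp at 4 h and 0 bp at 12 h. Serpinb9 had 251, 639 and 0 bp, and none of its 4 h peaks overlapped its 0 h peak, so the covered stretches differed. A non-coding gene, Gm36181, overlaps Serpinb9 at the 0 h peak. The peaks of both genes lay inside the gene and not within 1 kb of its ends. In contrast to the unmarked chromosome 1 cluster around Serpinb2, these relatives did carry the mark at 0 h and 4 h.

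Of 5 genes for plasminogen and its surface receptors 4 were marked at all times, beside 53% of all genes. Anxa2, whose product annexin A2 binds plasminogen and tissue type activator with S100A10, had 655, 896 and 1355 bp. S100a10 had 690, 916 and 715 bp and Eno1 1931, 1773 and 1978 bp. Plgrkt, a plasminogen receptor gene, had 927, 790 and 280 bp, with another gene in the window. Its log2 ratio from 0 h to 12 h was -1.73, and what remained at 12 h was the 280 bp peak across its upper-coordinate end.

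Of 10 genes for partners and clearance of the urokinase receptor, 6 were marked at each time. Of all genes, 56.3%, 58.3% and 56.2% were marked at 0 h, 4 h and 12 h. Lrp1, the endocytic receptor that removes protease and inhibitor complexes, had 1284, 941 and 644 bp, with another gene in the window. Igf2r had 981, 1200 and 567 bp. Mrc2, the receptor also called uPARAP, was marked at 4 h alone, with 297 bp. Itgb3, the integrin beta 3 gene, had 147, 0 and 570 bp. Its 0 h peak was near the narrowest width of its library, 136 bp, and overlapped none of its 12 h peaks.

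The coagulation group had 3 of 9 genes marked at 0 h and 5 of 9 at 4 h and at 12 h, beside 56.3%, 58.3% and 56.2% of all genes. F3, the gene of tissue factor, which starts coagulation, had 444 bp at 0 h, 1584 bp at 4 h and 1320 bp at 12 h. Its log2 ratios from 0 h were 1.83 to 4 h and 1.57 to 12 h. At 0 h a peak of 182 bp lay across a gene end, and one of 262 bp lay outside the gene, beyond its other end. Neither overlapped a peak of 4 h or 12 h, so the covered stretches differed. F2rl1, a protease-activated receptor gene, had 0, 357 and 222 bp. Procr was marked at 12 h alone with 158 bp and Tfpi2 at 4 h alone with 139 bp, both at or near the narrowest widths of their libraries. Tfpi2 also had another gene in its window.

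Among other extracellular serine proteases, Prss35, a protease-like gene expressed in ovarian follicles, had 430 bp at 0 h, 1126 bp at 4 h and 1737 bp at 12 h, a log2 ratio of 2.01 from 0 h to 12 h. Its 2 peaks at 0 h and 4 peaks at 4 h were replaced at 12 h by 1 peak over chr9:86743729-86745465. Prss23 went the other way, with 1435, 1126 and 861 bp. Htra1 had 596, 1311 and 702 bp, and St14, the matriptase gene, 270, 225 and 0 bp. Of the plasmin targets, Mmp2 had 0, 139 and 152 bp, with another gene in the window. Its values at 4 h and 12 h equal the narrowest peak width of their libraries. Of the 8 targets 5 were never marked, beside 39.3% of all genes.

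**Figure D4:**
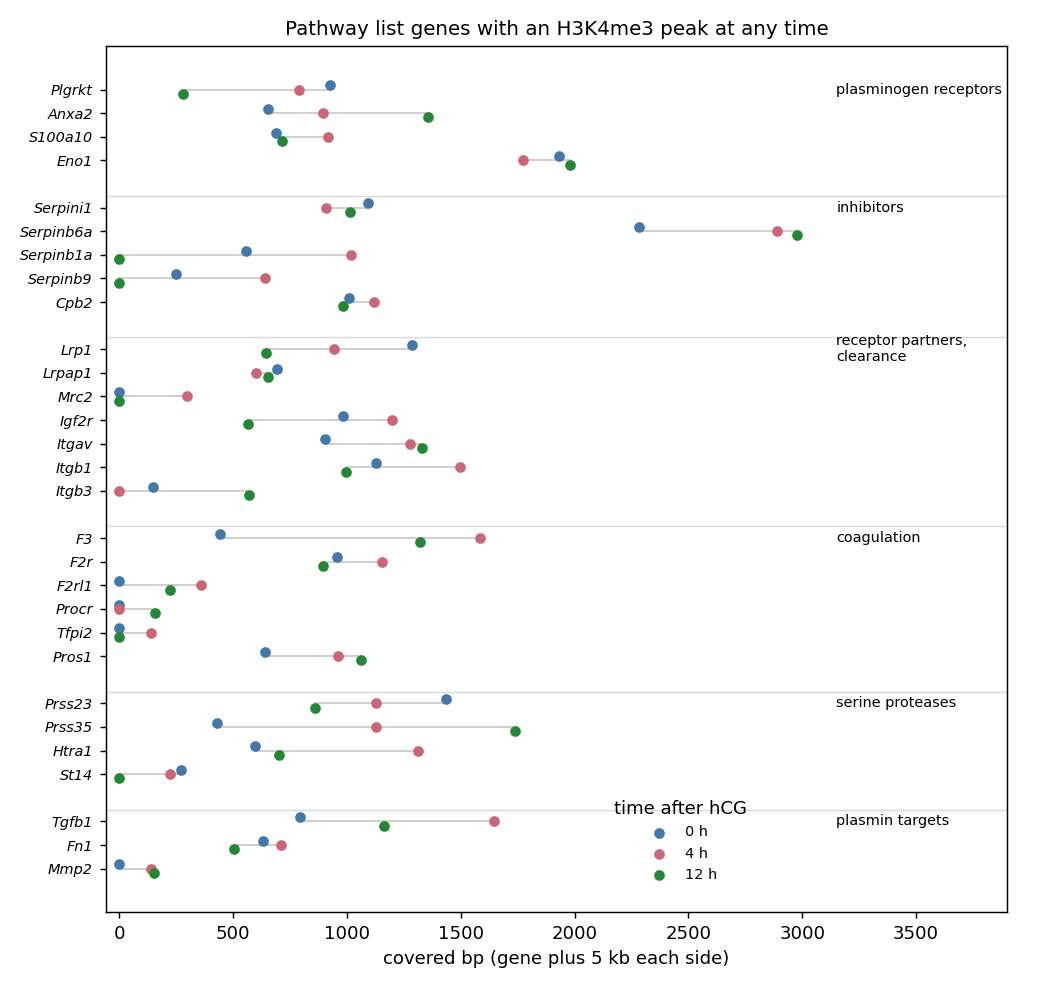
Covered bp (horizontal axis, from 0) in the gene plus 5 kb on both sides for the 29 related genes with a peak at any time, grouped by role, with a point per time after hCG and a grey line over their range, 1 library per time. F3 and Prss35 lie well to the right of their 0 h point at 4 h and 12 h, and Serpinb1a and Serpinb9 are at 0 at 12 h.

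The genes whose covered length over the 3 times was most like that of the marked members, by the distance of log2(covered bp + 100), were Ogdhl for Plau (289, 155 and 188 bp, distance 0.11) and Pgc for Serpine2 (552, 683 and 445 bp, distance 0.05). With 3 values per gene such matches are easily found.

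The labelled cell type was checked against marker genes. Over all genes, 56.3%, 58.3% and 56.2% were marked at 0 h, 4 h and 12 h, and 39.3% at none of these times. The marker counts below are to be read beside these shares. Of 10 granulosa markers 9 had a peak at some time, among them Fshr (1707, 1495 and 675 bp) and Foxl2 (757, 356 and 543 bp), while Amh had none. The summed covered length of the granulosa markers was 10640, 7780 and 3946 bp at 0 h, 4 h and 12 h. Much of that difference lay at Hsd17b1 (3146, 1304 and 349 bp, with other genes in its window) and Cyp19a1 (2045, 845 and 382 bp). Lhcgr went the other way, with 1198, 1314 and 1573 bp. Inha, Amhr2 and Lhcgr also had another gene in the window. Of 8 leukocyte markers 2, 3 and 2 were marked, with 1216, 1996 and 1399 bp in sum. Cd14 (378, 328 and 508 bp) and Cd68 (838, 1529 and 891 bp, with other genes in its window) were marked at all times. Spi1, Adgre1, Lyz2 and Itgam, which is also on the list of receptor partners, were at 0, and Ptprc had 139 bp at 4 h alone. Of 7 endothelial markers 0, 2 and 1 were marked, with Pecam1 and Cdh5 at 0 and sums of 0, 517 and 164 bp. Of 8 stromal and smooth muscle markers 0, 1 and 1 were marked, with sums of 0, 139 and 192 bp. Of 4 theca markers Cyp17a1 and Insl3 were at 0, while Ptch1 (903, 1670 and 1199 bp) and Gli1 (864, 789 and 1220 bp, with another gene in its window) were marked at all times, with sums of 1767, 2459 and 2419 bp. Of 7 oocyte markers only Gdf9, with another gene in its window, was marked (810, 1166 and 530 bp). The leukocyte, endothelial, theca and oocyte sums, like the covered length at Serpine2, were highest at 4 h, and so was the length covered in the whole library (8.87, 10.1 and 8.93 Mb). Their part in the Serpine2 value was not tested. The mark is measured over all cells of a library, so fewer marked cells and less mark per cell cannot be told apart.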

How the data were processed

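H3K4me3 ChIP-seq was deposited as 1 peak list per time, with libraries amplified for 18 PCR cycles. The authors deposited the start and end of each peak as positions in bp, with no score, height or depth. MACS2 2.0.9, Bowtie2 2.2.3, CASAVA 1.8 and mm10 are named in the submitters' processing notes. The sources used here do not state the threshold for peaks or whether input DNA entered the calling. Every list has nolambda in its own name, while the names of single peaks carry that tag at 0 h and 4 h and lack it at 12 h. Whether the 12 h list was called with other settings is unknown, and such a difference cannot be told apart from time.

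Peaks on the autosomes, X and Y were clipped to each protein-coding gene plus 5 kb (RefSeq, GRCm38.p6) and their union length was counted with Python 3.11.15, pandas 2.3.3 and numpy 2.4.6. A gene was marked with at least 1 covered bp, gained or lost when it was marked at 1 of the times compared alone, and changed at 2-fold or more. On simulated peaks the count was exact for 400 of 400 genes. No test was made, as each time has 1 library.

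The members and lists were chosen with earlier results of these data known. Named besides the members were list genes that gained or lost a peak, the 3 largest and 3 smallest log2 ratios per comparison, and Plg and Prss35, whatever their values; 1 further gene of the list is not reported here. A few others show a group's values and were chosen after these were seen. Alternatives were 7 planned ones (no flank, flanks of 2 and 10 kb, peaks under the 25th width percentile left out, the 20669 widest peaks per library, peaks within 1 kb joined, reciprocal overlap of 50%) and 1 added after seeing the data, 1 kb around either gene end.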

Additional observations from a re-analysis of the deposited data

How the results depend on the processing

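Of 237 values recomputed under an alternative setting, 219 stayed within 1.5 times the reported value and 18 did not. No difference between times took the opposite sign. Many of the 219 had little room to move. Plat, Plaur and Serpinb2 had no peak for a stricter setting to remove. All Plau and Serpine2 peaks lay inside the gene, so leaving out the flank could not change them. The share is therefore no measure of how stable the other values are. With peaks under the 25th width percentile of their library left out, 1 of the 5 genes was marked at 4 h and 1 at 12 h, and 1 lost its mark from 0 h to 4 h and 1 from 0 h to 12 h, since the Plau peaks at the later times were removed by construction. Serpine2 was then at 248 bp at 12 h. Within 1 kb of either gene end, which leaves out the part of the Serpine2 region farther in, its differences were -143 bp from 4 h to 12 h and -25 bp from 0 h to 12 h. With reciprocal overlap of 50%, 1 of the 3 peaks at 0 h was overlapped at 4 h in place of 2, 0 of the 2 peaks at 4 h were overlapped at 12 h in place of 1, and 0 of the 3 peaks at 12 h were overlapped at 4 h in place of 2. Under the other settings the counts of marked members stayed at 2. No paired analysis was possible because each time has 1 library and the result comes from no test. Leaving out a library was not possible for the same reason. Depth is unknown, so an absent peak cannot be told apart from a mark too weak to be called.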
